A study of Homo sapiens with 12 samples.

Results

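The comparison set N/TERT-2G keratinocytes that had received ATF3 siRNA directly against those that had received CXCL14 siRNA. The members are the 6 libraries that the labels give to these 2 targets, 3 each, of 12 in the series; the others received APOE siRNA or a negative control siRNA. N/TERT-2G is an immortalised line of human skin keratinocytes. Per the labels, each well received 100 pmol of its siRNA with a lipid transfection reagent, in keratinocyte serum-free medium that was changed 6 h later. The siRNA sequences, the time of harvest and whether replicates came from separate cultures are not given in the sources used here, so a p-value speaks only for the scatter among these 6 libraries, which may be technical. Both groups carry a knockdown, so a difference between them cannot be assigned to either siRNA, and mean levels in the 3 negative control libraries are given beside the main results for orientation, without a test.

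ATF3 is a stress-induced transcription factor of the ATF/CREB family, which binds cyclic AMP response elements and AP-1 sites and often represses its targets. CXCL14 is a chemokine that epithelia secrete constitutively. Keratinocytes of the basal layer divide, then leave the cell cycle and build the cornified envelope as they move upwards. After wounding or in inflamed skin they switch on stress keratins, antimicrobial proteins and proteases that open the matrix.

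The 2 groups differed in 7593 of 14388 genes tested in messenger RNA from these bulk libraries (52.8%). Of these, 3884 were higher (27.0%) and 3709 were lower (25.8%) with ATF3 siRNA than with CXCL14 siRNA at an adjusted p under 0.05 (edgeR quasi-likelihood test). Differences of at least 2-fold were found for 1185 higher genes (8.24%) and 737 lower genes (5.12%), and differences of at least 8-fold for 24 higher and 46 lower genes. With a stricter filter on low counts, which tests fewer genes, 888 were at least 2-fold higher and 361 at least 2-fold lower. The median of all log2 fold changes was -0.02, and the 10th and 90th percentiles were -0.72 and 0.89. Higher genes made up 51.2% of the called genes, but 40.9% when libraries were scaled by their totals alone, where the median of all genes was -0.11. CPM, counts scaled to library size with TMM factors, did not overlap between the groups for 8593 genes (59.7%). In what follows a level is a CPM value, a change is a log2 fold change ± SE of ATF3 siRNA over CXCL14 siRNA, each with n = 3 per group, and "higher" or "lower" without a value means an adjusted p under 0.05.

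**Figure D1:**
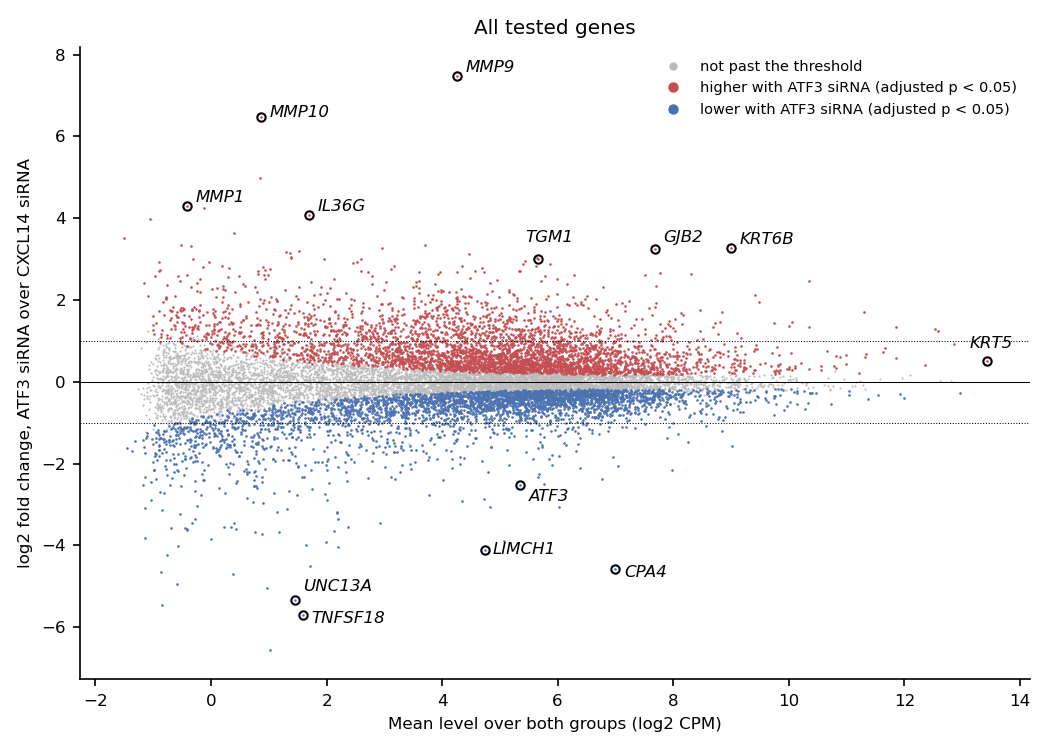
Each point is 1 of the 14388 tested genes, with its mean level over both groups (log2 CPM) on the x axis and its log2 fold change, ATF3 siRNA over CXCL14 siRNA, on the y axis; dotted lines mark 2-fold. Called genes lie on both sides, 3884 above and 3709 below 0, with MMP9 the highest labelled point at 7.48 and TNFSF18 the lowest labelled point at -5.69.

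Total counts were 22246755, 17874102 and 17191610 with ATF3 siRNA and 17742022, 17516851 and 21377538 with CXCL14 siRNA, so 3 counts, the limit that a count of 0 allows, are 0.137 to 0.182 CPM; such limits, and the interval given for a count ratio, cover counting error only. Across genes, which are not independent replicates, log2 CPM correlated at 0.9914 to 0.9948 within groups and at 0.9591 to 0.9649 between them. The 10 most abundant genes took 7.17 to 7.53% of counts with ATF3 siRNA and 5.80 to 6.01% with CXCL14 siRNA, and mitochondrially encoded transcripts took 1.90 to 2.02% and 2.10 to 2.21%. The summed level of 10 keratinocyte markers was 48600 to 52300 CPM with ATF3 siRNA and 28900 to 29900 CPM with CXCL14 siRNA. The 6 immune markers summed to 0 to 0.140 CPM with ATF3 siRNA and 0 to 0.108 CPM with CXCL14 siRNA, with CD3E, LYZ and PTPRC at 0 in all 6 libraries. The 6 melanocyte markers summed to 3.35 to 3.89 CPM with ATF3 siRNA against 6.50 to 6.82 CPM with CXCL14 siRNA (TYR at 0), the 5 endothelial markers to 0.702 to 0.738 CPM against 1.40 to 1.78 CPM, and the 8 fibroblast markers to 33.6 to 41.1 CPM against 14.8 to 18.3 CPM. Single genes carried much of these 3 differences. MITF had 1.40 to 2.25 CPM against 4.46 to 4.69 CPM, while the melanocyte marker PMEL was not called (-0.14). KDR had 0.341 to 0.468 CPM against 1.12 to 1.60 CPM, and COL1A1 32.9 to 40.9 CPM against 13.6 to 17.3 CPM. No other endothelial or fibroblast marker passed the filter on low counts. Keratins of simple epithelium and sweat gland summed to 597 to 706 CPM with ATF3 siRNA and 861 to 1040 CPM with CXCL14 siRNA, with KRT77 at 0. The part of these marker differences in the results was not tested.

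Each target was lower in the group that received its own siRNA. ATF3 (ENSG00000162772, chromosome 1, 212565334 to 212620777, plus strand, hg38) stood at 12.21, 12.67 and 11.53 CPM with ATF3 siRNA, against 65.35, 73.42 and 70.16 CPM with CXCL14 siRNA. The ATF3 siRNA libraries held 17.4% of the other group's mean (-2.52 ± 0.09, edgeR adjusted p = 9.87e-10; exact two-sided permutation p = 0.1, the smallest that 3 against 3 allows). The negative control libraries averaged 42.2 ± 1.5 CPM (SD, n = 3), between the means of the groups. CXCL14 was near the limit of detection, with 5, 17 and 21 counts with ATF3 siRNA and 1, 1 and 0 counts with CXCL14 siRNA, beside 7, 6 and 11 counts with control siRNA. It did not pass the filter on low counts. Summed over libraries it had 43 counts with ATF3 siRNA and 2 with CXCL14 siRNA, a depth-scaled ratio of 22.6 (95% counting interval from 5.89 to 193), and the exact two-sided permutation p was 0.1. APOE, the target of the remaining siRNA, stood at 2.71, 4.49 and 4.55 CPM with ATF3 siRNA and 5.59, 5.92 and 6.45 CPM with CXCL14 siRNA (-0.63 ± 0.20, edgeR adjusted p = 0.0173). That call was lost without ATF3 siRNA library 1 (adjusted p = 0.0725) and without CXCL14 siRNA library 3 (adjusted p = 0.0634).

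The gene furthest apart upwards among the leading genes was MMP9, a gelatinase that keratinocytes release at wound edges. MMP9 (ENSG00000100985, chromosome 20, 46008908 to 46016561, plus strand) had 42.7, 31.6 and 39.5 CPM with ATF3 siRNA, against 0.269, 0.223 and 0.137 CPM with CXCL14 siRNA, where the libraries held 5, 4 and 3 counts. Its change was 7.48 ± 0.22 (179-fold, edgeR adjusted p = 3.17e-10), and the control libraries averaged 10.02 CPM. Next came IL36G, an epidermal cytokine of the interleukin-1 family, at 7.16, 5.74 and 5.59 CPM against 0.538, 0.168 and 0.366 CPM (4.08 ± 0.29). Both gap-junction genes of the GJB2 and GJB6 pair, whose connexins couple keratinocytes in wounded and hyperproliferative epidermis, were about equally displaced. GJB2 had 402, 354 and 365 CPM with ATF3 siRNA and 43.6, 34.9 and 38.9 CPM with CXCL14 siRNA (3.26 ± 0.10), and GJB6 changed by 3.34 ± 0.18. The connexin family as a whole had 7 of 9 tested members higher (77.8%) and 1, GJA5, lower at -2.01. Of all tested genes, 27.0% were higher and 25.8% lower.

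Other leading genes on the higher side were the stress keratin KRT6B (3.27 ± 0.08), the interferon-induced GTPase GBP4 (3.26 ± 0.22), and APIP, an enzyme of methionine salvage (3.19 ± 0.28). They also included the epidermal metalloproteinase MMP28 (3.13 ± 0.16), ID1, a helix-loop-helix inhibitor of differentiation factors (3.02 ± 0.15), TGM1, the transglutaminase that cross-links the cornified envelope (3.01 ± 0.19), IGFL2 (3.01 ± 0.21), and CTSS, a cysteine protease of the lysosome. CTSS had 4.96, 8.41 and 7.41 CPM with ATF3 siRNA and 0.861, 0.726 and 0.961 CPM with CXCL14 siRNA. TGM1 had 64.3, 96.2 and 108 CPM with ATF3 siRNA and 13.6, 10.5 and 9.29 CPM with CXCL14 siRNA, and its control mean of 11.5 CPM lay close to the CXCL14 siRNA mean. On a log scale the control mean was nearer to the ATF3 siRNA mean for 10 of these 12 genes and nearer to the CXCL14 siRNA mean for MMP28 and TGM1.

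**Figure D2:**
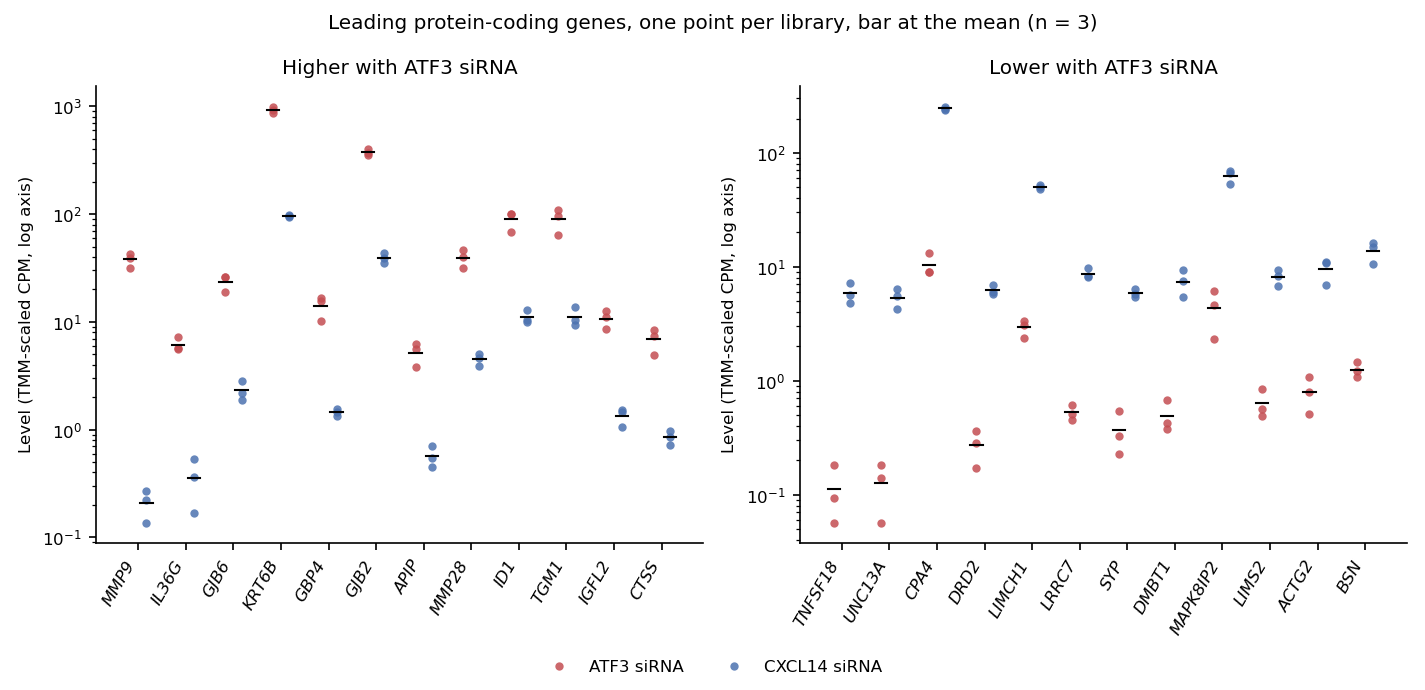
The 12 protein-coding genes with the largest change in each direction among called genes that average at least 5 CPM in 1 group and do not overlap. Each library is 1 point, the mean of each group is a bar (n = 3), and TMM-scaled CPM is on a log axis. ATF3 siRNA stands left of CXCL14 siRNA within each gene. The groups do not overlap for any of the 24 genes, which the choice of genes required; MMP9 has the widest gap of those on the left, and CPA4 reaches 240 to 254 CPM with CXCL14 siRNA on the right.

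On the lower side the most abundant leading gene was CPA4, a secreted metallocarboxypeptidase. CPA4 (ENSG00000128510, chromosome 7, 130293134 to 130324180, plus strand) had 9.03, 9.03 and 13.2 CPM with ATF3 siRNA, against 243, 240 and 254 CPM with CXCL14 siRNA (-4.57 ± 0.13, edgeR adjusted p = 3.02e-10), and a control mean of 4.19 CPM. LIMCH1, an activator of non-muscle myosin, had 2.39, 3.07 and 3.34 CPM against 50.3, 52.6 and 48.2 CPM (-4.11 ± 0.12). MAPK8IP2, a scaffold of the JNK pathway, had 2.34, 4.66 and 6.13 CPM against 53.6, 66.0 and 69.7 CPM (-3.88 ± 0.22). In these 3 genes every CXCL14 siRNA library exceeded every ATF3 siRNA library by more than the whole spread within either group.

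The other leading genes on the lower side stood at 4.26 to 16.2 CPM with CXCL14 siRNA and below 1.5 CPM with ATF3 siRNA. TNFSF18, the ligand of the T-cell receptor GITR, had 2, 1 and 3 counts with ATF3 siRNA and 106, 86 and 158 counts with CXCL14 siRNA (-5.69 ± 0.36). Several are better known from nerve cells: UNC13A (-5.33 ± 0.35), BSN (-3.47 ± 0.21) and SYP (-3.99 ± 0.27) encode proteins of the presynaptic terminal, LRRC7 (-4.04 ± 0.21) a postsynaptic protein and DRD2 (-4.50 ± 0.27) a dopamine receptor. DMBT1, a mucosal scavenger-receptor glycoprotein (-3.91 ± 0.29), LIMS2, an adaptor of integrin adhesions (-3.64 ± 0.24), and ACTG2, a smooth-muscle actin (-3.56 ± 0.27), complete the 12. For all 12 the control mean was nearer to the ATF3 siRNA mean on a log scale, from 0.0806 CPM for UNC13A to 5.22 CPM for MAPK8IP2.

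Among called genes that are not protein-coding, average at least 5 CPM in 1 group and do not overlap between the groups, the largest changes were 2.60 ± 0.08 for ANXA2P2, 1.91 ± 0.24 for ADIRF-AS1 and 1.72 ± 0.13 for RPS7P11 on the higher side. OR10AC1 (-2.25 ± 0.10), KRT87P (-1.95 ± 0.40) and SLC22A20P (-1.95 ± 0.17) were the furthest apart on the lower side. The change of KRT87P was -2.95 without ATF3 siRNA library 1, where it stood at 4.30 CPM, against 0.909 and 1.40 CPM in the other ATF3 siRNA libraries. ANXA2P2 and RPS7P11 are pseudogenes close in sequence to expressed genes, so their counts may hold reads of the parent genes. Genes that overlap on opposite strands are likewise uncertain, because whether reads were counted by strand was not stated in the labels.

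Cell-division genes that could be tested all moved in the same direction. Of the 41 mitosis genes listed, 40 were tested, 40 were higher with ATF3 siRNA and 37 at least 2-fold, with changes of 0.27 to 2.83 and a median of 1.55, beside 27.0% of all tested genes called higher and a median of -0.02. MKI67, the proliferation marker Ki-67, had 273, 194 and 207 CPM with ATF3 siRNA and 73.3, 64.4 and 48.1 CPM with CXCL14 siRNA (1.86 ± 0.15, edgeR adjusted p = 5.24e-07). CENPE, the kinetochore motor, changed most, at 41.7, 37.0 and 27.9 CPM against 5.81, 4.69 and 4.58 CPM (2.83 ± 0.16). CDC20, the activator of the anaphase-promoting complex, changed by 2.07 ± 0.11, PLK1, a mitotic kinase, by 1.74 ± 0.09, and FOXM1, the transcription factor of late cell-cycle genes, by 1.59 ± 0.09. BUB3, a checkpoint protein, changed least, with 123, 122 and 114 CPM against 103, 95.8 and 98.8 CPM. In bulk libraries a smaller share of dividing cells and less RNA per dividing cell cannot be told apart.

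DNA replication genes followed the same direction at smaller size. Of 41 listed and tested, 40 were higher (97.6%), beside 27.0% of all tested genes. At least 2-fold higher were 22, and the median was 1.07. RRM2, a subunit of ribonucleotide reductase, had 75.6, 73.6 and 66.8 CPM with ATF3 siRNA and 26.9, 22.9 and 23.3 CPM with CXCL14 siRNA (1.56 ± 0.09). CDC6, which loads the helicase at origins, changed by 1.54 ± 0.10 and E2F1, the transcription factor of S-phase entry, by 1.37 ± 0.13. POLE2, a subunit of DNA polymerase epsilon, did not pass (0.38 ± 0.19, adjusted p = 0.106). The median level of the mitosis list, on a scale of log2(CPM + 0.5), was 5.63, 5.41 and 5.35 with ATF3 siRNA, 4.16, 3.94 and 3.96 with CXCL14 siRNA, and 5.65, 5.64 and 5.61 with control siRNA. The DNA replication list showed the same order, with 4.98, 4.86 and 4.78 with ATF3 siRNA, 3.99, 3.98 and 4.03 with CXCL14 siRNA, and 4.95, 4.97 and 4.96 with control siRNA.

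**Figure D3:**
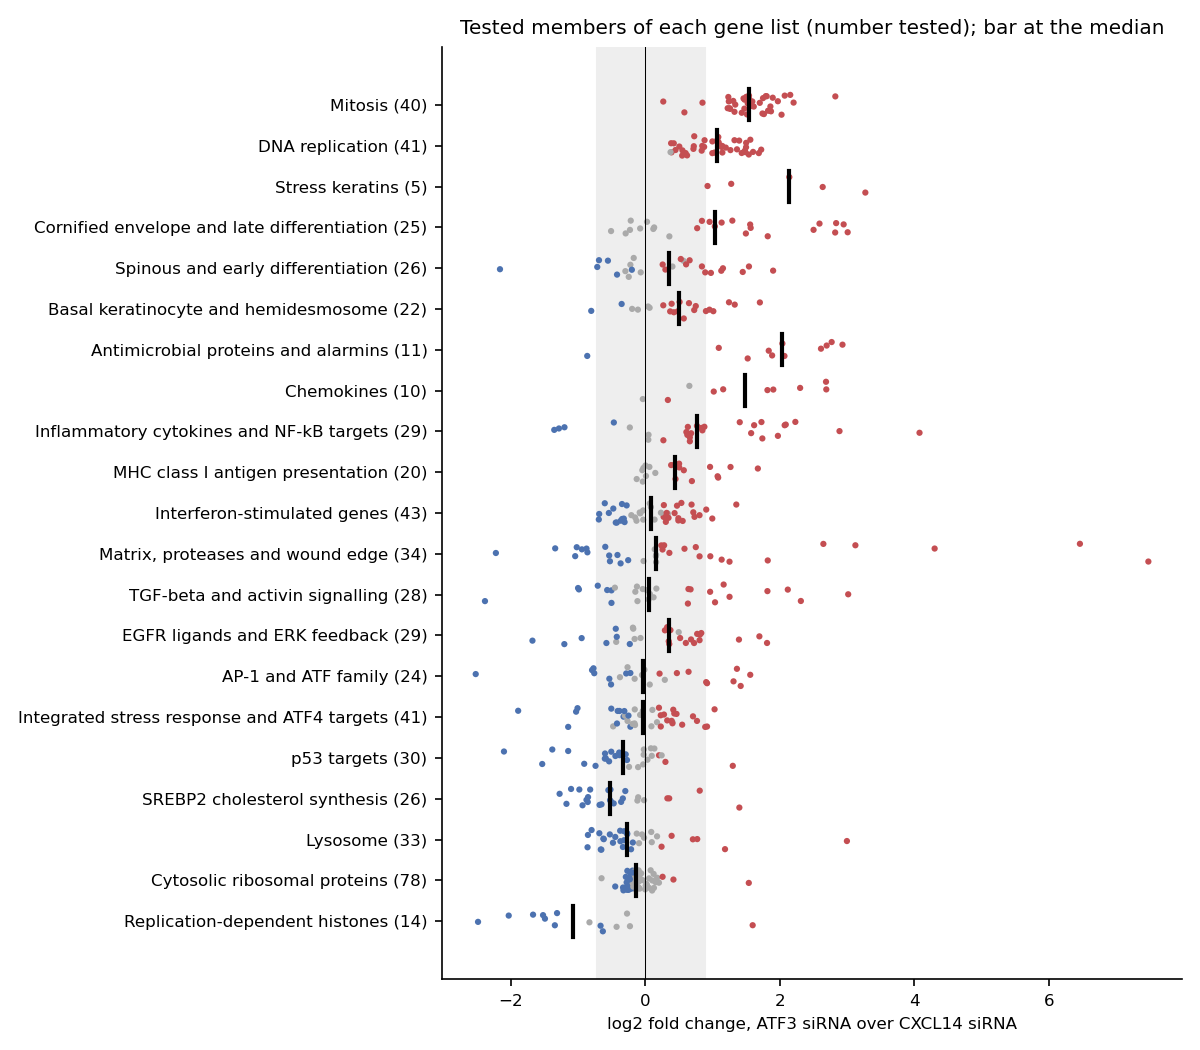
Log2 fold change, ATF3 siRNA over CXCL14 siRNA, of each tested member of 21 gene lists, with the number tested in brackets; red points are higher, blue points lower and grey points not called, the black bar is the list's median and the grey band spans the 10th to 90th percentile of all tested genes, -0.72 to 0.89. Medians above the band are those of stress keratins (2.14), antimicrobial proteins (2.04), mitosis (1.55), chemokines (1.49), DNA replication (1.07) and cornified envelope genes (1.04). The median of replication-dependent histones (-1.07) lies below it.

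Promoters of late cell-cycle genes are known to carry a cell-cycle homology region, CHR, next to CCAAT boxes. The stretches of 150 bases before the RefSeq start of 3 mitosis genes are shown because they hold both (GRCh38.p14, plus strand in each case, CHR and CCAAT in capitals).
PLK1 (chr16:23678739-23678888): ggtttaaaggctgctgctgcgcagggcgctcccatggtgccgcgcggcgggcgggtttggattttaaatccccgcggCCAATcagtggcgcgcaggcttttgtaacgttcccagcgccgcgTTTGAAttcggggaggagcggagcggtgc
CDC20 (chr1:43358831-43358980): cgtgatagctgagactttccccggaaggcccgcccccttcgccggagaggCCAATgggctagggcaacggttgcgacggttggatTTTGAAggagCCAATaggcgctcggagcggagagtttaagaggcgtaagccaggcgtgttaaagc
CCNB2 (chr15:59104996-59105145): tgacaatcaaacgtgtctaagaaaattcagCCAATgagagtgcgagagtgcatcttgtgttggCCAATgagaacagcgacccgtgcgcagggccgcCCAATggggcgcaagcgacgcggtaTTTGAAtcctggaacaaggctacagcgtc
In PLK1 the CHR began at -29 and the CCAAT box at -73, counted from the start. CCNB2, a mitotic cyclin, held 3 CCAAT boxes, at -120, -87 and -54, and a CHR at -29. Promoters with an entry were found for 10243 of the tested genes (14949 starts), and each was searched on both strands from 250 bases before to 50 bases after the start. The letters searched were TTTGAA for the CHR and CCAAT for the CCAAT box. For the AP-1 site they were TGACTCA, and for the cyclic AMP response element (CRE) they were TGACGTCA. None of these motifs contains another. CHR letters were in 25 of 33 mitosis genes (75.8%), 1 of 36 DNA replication genes (2.78%) and 13.6% of all. CCAAT boxes were in 27 of the 33 (81.8%), 22 of the 36 (61.1%) and 43.0% of all. Of genes at least 2-fold higher with ATF3 siRNA, 20.7% of 830 held the CHR, and of genes at least 2-fold lower, 14.8% of 438. The CRE, which ATF3 can bind, was in 4.22% of the 2-fold higher genes, 2.74% of the 2-fold lower genes and 3.71% of all. AP-1 letters were in 6.63% of the 2-fold higher genes, 5.94% of the 2-fold lower genes and 5.05% of all. These matches describe letters and show no binding.

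**Figure D4:**
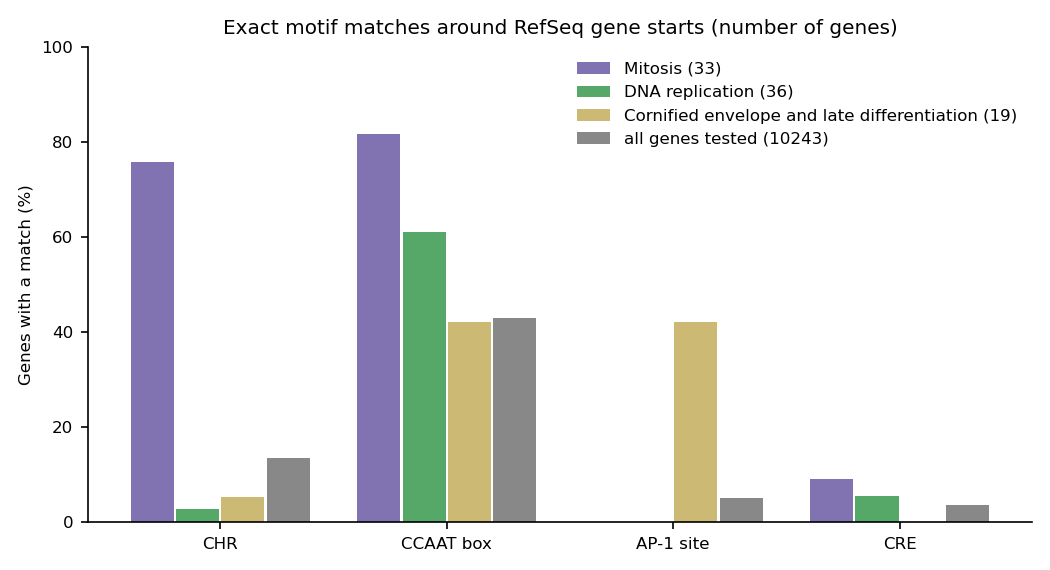
Share of genes (y axis, percent) with at least 1 exact match of each motif (x axis) within 250 bases before to 50 bases after a RefSeq start, for 3 gene lists and for all 10243 tested genes with an entry. CHR letters reach 75.8% in the mitosis genes and AP-1 letters 42.1% in the cornified envelope genes, beside 13.6% and 5.05% of all.

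Keratins of activated epidermis were higher as a group. All 5 stress keratins were higher with ATF3 siRNA, beside 27.0% of all tested genes. At least 2-fold higher were 4 of them, and the median was 2.14. KRT6B (ENSG00000185479, chromosome 12, 52446651 to 52452126, minus strand) had 874, 990 and 933 CPM with ATF3 siRNA and 94.4, 97.9 and 97.0 CPM with CXCL14 siRNA, and its control mean was 647 CPM. KRT16 changed by 2.64 ± 0.10, KRT6C by 2.14 ± 0.15, KRT6A by 1.28 ± 0.07 and KRT17, already at 4826.7 CPM or more in every library, by 0.93 ± 0.08. The KRT6 genes are near-identical copies and KRT16 and KRT17 have pseudogenes, so reads may be split among them.

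Basal-layer genes were mostly higher too, by less. Of 22 genes of basal keratinocytes and hemidesmosomes, the junctions that anchor them, 16 were higher (72.7%) and 2 lower (9.09%). All tested genes had 27.0% higher and 25.8% lower, and the list's median was 0.50. CAV1, the scaffold of caveolae, had 731, 710 and 665 CPM with ATF3 siRNA and 220, 199 and 227 CPM with CXCL14 siRNA (1.71 ± 0.08). KRT14, the basal keratin, changed by 1.25 ± 0.07 and its partner KRT5 by 0.51 ± 0.07, and TP63, the master regulator of stratified epithelium, by 1.01 ± 0.07. CDH3, the P-cadherin gene, was lower (-0.80 ± 0.07). COL17A1, a hemidesmosomal collagen, did not pass (0.07 ± 0.07, adjusted p = 0.474), with levels that overlapped between the groups. The sum of keratinocyte markers above shares 6 genes with this list, among them KRT5, KRT14, TP63 and COL17A1.

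Cornified envelope genes that could be tested were higher or did not pass. Of 43 listed, 18 did not pass the filter on low counts, among them the terminal genes LOR and FLG2. Of the 25 tested, 16 were higher (64.0%), 13 of them at least 2-fold, and 0 lower, with a median of 1.04. Over all tested genes the shares were 27.0% higher and 25.8% lower. IVL, the envelope precursor involucrin, had 75.0, 87.7 and 95.7 CPM with ATF3 siRNA, against 12.96, 11.7 and 11.4 CPM with CXCL14 siRNA (2.84 ± 0.11, edgeR adjusted p = 1.78e-09). The 6 tested SPRR genes, small proline-rich envelope proteins, were all higher, from 1.56 for SPRR3 to 2.95 for SPRR2D. FLG, the filaggrin gene, stood at 1.40, 1.31 and 1.88 CPM with ATF3 siRNA and 1.94, 2.12 and 1.56 CPM with CXCL14 siRNA and did not pass (-0.29 ± 0.26). CASP14, the protease that acts on filaggrin, did not pass either (-0.21 ± 0.48). AP-1 letters were in the promoters of 8 of 19 cornified envelope genes with an entry (42.1%), in 0 of 33 mitosis genes and in 5.05% of all tested genes. The upstream stretches of IVL, SPRR1B and, from the lower side, CPA4 are shown because each holds the AP-1 letters (GRCh38.p14, plus strand, matches on either strand in capitals).
IVL (chr1:152908396-152908545): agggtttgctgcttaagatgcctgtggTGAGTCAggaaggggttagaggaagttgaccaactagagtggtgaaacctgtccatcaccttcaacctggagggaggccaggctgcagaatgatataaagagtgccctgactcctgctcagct
SPRR1B (chr1:153031053-153031202): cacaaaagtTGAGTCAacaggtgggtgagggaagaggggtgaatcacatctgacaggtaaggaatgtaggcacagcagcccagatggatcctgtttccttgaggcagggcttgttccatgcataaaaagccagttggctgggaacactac
CPA4 (chr7:130293011-130293160): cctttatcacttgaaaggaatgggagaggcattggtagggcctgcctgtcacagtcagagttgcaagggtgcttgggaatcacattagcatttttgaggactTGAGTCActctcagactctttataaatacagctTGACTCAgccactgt
The CPA4 stretch held the letters at -15 and -48, with CPA4 lower, while IVL held them at -123 and SPRR1B at -141, with both genes higher.

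Genes of the spinous layers were mixed. Of 26 tested, 13 were higher (50.0%) and 6 lower (23.1%), beside 27.0% and 25.8% of all tested genes. The list's median was 0.35. NOTCH3, a receptor that drives keratinocyte commitment, changed by 1.90 ± 0.13 and LYPD3, an adhesion protein of suprabasal cells, by 1.54 ± 0.10. KRT80 went the other way, with 86.7, 87.4 and 103 CPM with ATF3 siRNA and 361, 437 and 438 CPM with CXCL14 siRNA (-2.16 ± 0.10). Of 20 Notch pathway genes tested, 7 were higher, NOTCH3 and NOTCH2 (1.08) among them, and 4 were lower.

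Antimicrobial proteins and alarmins were higher with ATF3 siRNA in 10 of 11 tested members (90.9%), beside 27.0% of all tested genes. Each of the 10 was at least 2-fold higher, and the list's median was 2.04. A further 6 members, such as DEFB4A and CAMP, did not pass the filter. S100A9, a subunit of calprotectin, had 310, 316 and 317 CPM with ATF3 siRNA and 57.8, 44.8 and 51.3 CPM with CXCL14 siRNA (2.61 ± 0.09, edgeR adjusted p = 9.87e-10). Its partner S100A8 changed by 2.70 ± 0.13 and PI3, the elastase inhibitor elafin, by 2.77 ± 0.12. RNASE7, a ribonuclease that kills bacteria on skin, was lower, at 45.5, 41.5 and 46.4 CPM against 81.1, 83.4 and 77.9 CPM (-0.86 ± 0.08). Over the S100A family 13 of 14 tested genes were higher.

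Chemokines other than the siRNA target were higher in 8 of 10 tested genes (80.0%), beside 27.0% of all tested genes. At least 2-fold higher were 7, the median was 1.49, and the rest of the list did not pass the filter. The receptor CXCR3 binds both CXCL10 and CXCL11, which were the furthest apart. CXCL10 had 20.1, 22.4 and 20.4 CPM with ATF3 siRNA and 3.98, 3.07 and 2.70 CPM with CXCL14 siRNA (2.69 ± 0.15), and CXCL11 had 23.4, 30.7 and 26.9 CPM against 5.32, 3.69 and 3.57 CPM (2.69 ± 0.16). Of the neutrophil attractants, CXCL8 changed by 1.91 ± 0.22, CXCL3 by 2.30 ± 0.29 and CXCL1 by 1.16 ± 0.17, with group means of 13.1 CPM or less.

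Inflammatory cytokines and NF-kB targets were higher in 22 of 29 (75.9%) and lower in 4 (13.8%), beside 27.0% and 25.8% of all tested genes. IL1B, a pyrogenic cytokine, had 271, 231 and 217 CPM with ATF3 siRNA and 62.4, 60.8 and 59.9 CPM with CXCL14 siRNA (1.97 ± 0.09). CSF3, the granulocyte growth factor, had 119, 94.3 and 94.4 CPM against 13.02, 14.4 and 14.0 CPM (2.89 ± 0.11). IL1A changed by 1.62 ± 0.10 and the receptor antagonist IL1RN by 2.07 ± 0.14, so agonists and antagonist of the receptor were both higher. IL18, which inflammasomes process, was lower, at 31.3, 36.7 and 23.1 CPM against 80.1, 73.6 and 79.2 CPM (-1.35 ± 0.13).

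Interferon-stimulated genes did not share a direction: of 43 tested 18 were higher (41.9%) and 13 lower (30.2%), beside 27.0% and 25.8% of all tested genes. Their median of 0.09 changed sign in some alternative fits. IFI35 was the furthest apart (1.36 ± 0.08), while IFITM3, a membrane protein that restricts viral entry, was lower (-0.69 ± 0.08). Of 20 genes of antigen presentation by MHC class I, 12 were higher and 0 lower, with a median of 0.45, led by the proteasome subunit PSMB10 (1.68 ± 0.15) and the proteasome activator PSME2 (1.27 ± 0.08).

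Proteases and matrix genes moved in both directions, 16 of 34 higher (47.1%) and 13 lower (38.2%), beside 27.0% and 25.8% of all tested genes. Besides MMP9, the collagenase MMP1 had 52, 18 and 14 counts with ATF3 siRNA and 2, 0 and 2 counts with CXCL14 siRNA (4.30 ± 0.69), and the stromelysin MMP10 had 81, 75 and 45 counts against 1, 1 and 0 counts (6.46 ± 0.49). These fitted changes rest on 4 and 2 counts in the CXCL14 siRNA group and depend on how low counts are treated. PLAU, the urokinase that activates plasminogen, had 416, 355 and 366 CPM with ATF3 siRNA and 61.4, 57.1 and 62.6 CPM with CXCL14 siRNA (2.65 ± 0.08). COL8A1, a short-chain collagen, was lower (-2.22 ± 0.10), as was VIM, the intermediate filament vimentin (-1.34 ± 0.09). COL1A1, which counts among the fibroblast markers given above, was higher, at 32.9, 33.6 and 40.9 CPM against 13.6, 17.3 and 15.8 CPM (1.20 ± 0.12).

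In the TGF-beta and activin list 11 of 28 tested genes were higher (39.3%) and 7 lower, beside 27.0% and 25.8% of all tested genes. The list's median of 0.06 changed sign in some alternative fits. The ligand gene INHBA, a subunit of activin A, had 214, 171 and 165 CPM with ATF3 siRNA and 38.3, 37.9 and 34.3 CPM with CXCL14 siRNA (2.32 ± 0.10), and TGFB1 changed by 1.17. The signalling receptors TGFBR1 (1.25) and TGFBR2 (0.97) were higher and the co-receptor TGFBR3 was lower (-2.38 ± 0.19). ID1 and ID3, close relatives that BMP signals induce, moved apart, at 3.02 for ID1 and -0.98 for ID3.

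Ligands and feedback genes of the EGF receptor were higher in 16 of 29 (55.2%) and lower in 7 (24.1%), or in 4 without ATF3 siRNA library 1. Of all tested genes, 27.0% were higher and 25.8% lower. HBEGF, a ligand shed during wound closure, had 57.6, 47.8 and 47.8 CPM with ATF3 siRNA and 14.1, 14.2 and 15.3 CPM with CXCL14 siRNA (1.81 ± 0.10), and the ligands EREG (0.77), AREG (0.61) and TGFA (0.52) were higher by less. EGF itself was lower (-1.68 ± 0.41), with 20 counts or fewer in every library. EGR1, an immediate early transcription factor, was higher (1.70 ± 0.11) and DUSP5, a nuclear phosphatase of ERK, lower (-0.94 ± 0.12).

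Of 24 tested AP-1 and ATF family genes, the relatives of ATF3, 9 were higher (37.5%) and 8 lower (33.3%), ATF3 included, beside 27.0% and 25.8% of all tested genes. ATF1, a partner in the CREB group, had 24.8, 29.2 and 23.4 CPM with ATF3 siRNA and 9.63, 8.16 and 8.42 CPM with CXCL14 siRNA (1.56 ± 0.12), FOS changed by 1.42 ± 0.12 and JUNB by 1.31 ± 0.09. ATF7 was lower (-0.79 ± 0.11). Genes of the integrated stress response, the pathway through which ATF4 can induce ATF3, moved in both directions, with 16 of 41 higher (39.0%) and 12 lower (29.3%). NUPR1, a stress-induced chromatin protein, was the furthest apart, at 21.9, 27.9 and 23.8 CPM against 92.1, 87.2 and 92.6 CPM (-1.89 ± 0.10), and the tryptophan tRNA synthetase WARS was higher (1.03 ± 0.07).

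Of 1068 tested transcription factors that the file annotates, 216 were higher (20.2%) and 292 lower (27.3%), beside 27.0% and 25.8% of all tested genes. After ID1, the largest changes on the higher side were in ZNF367 (2.33 ± 0.13), FOXQ1 (2.10 ± 0.31), EHF, an epithelial ETS factor (2.09 ± 0.10), E2F8, an atypical cell-cycle E2F (1.88 ± 0.21), and EGR1. EHF had 156, 145 and 142 CPM with ATF3 siRNA and 40.6, 32.5 and 31.2 CPM with CXCL14 siRNA. After ATF3 itself, the lower side was led by NKX1-2 (-2.42 ± 0.17), HOXA5 (-2.20 ± 0.23), NHLH2 (-1.97 ± 0.19), ZFP57, which maintains genomic imprints (-1.85 ± 0.13), and SATB1, a chromatin organiser (-1.67 ± 0.15). Of the 498 C2H2 zinc finger factors, 60 were higher and 149 lower (29.9%), with a median of -0.20.

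The p53 target genes leaned to the lower side, with 17 of 30 lower and 3 higher and a median of -0.33, beside 25.8% of all tested genes called lower. TP53INP1, which promotes p53 phosphorylation, had 30.5, 34.6 and 29.4 CPM with ATF3 siRNA and 147, 136 and 122 CPM with CXCL14 siRNA (-2.10 ± 0.09, edgeR adjusted p = 5.56e-09). MDM2, the ligase that degrades p53, was lower (-0.74 ± 0.10), and CDKN1A, the cell-cycle inhibitor p21, had 1358.8, 1368.2 and 1450.6 CPM against 1910.3, 2048.4 and 2099.1 CPM (-0.54 ± 0.07). XPC, a DNA damage sensor, was higher (1.30 ± 0.09). The list's median level on the log2(CPM + 0.5) scale was 5.69 to 5.84 with ATF3 siRNA, 6.53 to 6.56 with CXCL14 siRNA and 5.52 to 5.54 with control siRNA.

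Cholesterol synthesis genes, which SREBP2 switches on when sterols are scarce, were lower in 19 of 26 and higher in 4, with a median of -0.52. MVD, an enzyme of the mevalonate pathway, had 161, 154 and 159 CPM with ATF3 siRNA and 341, 393 and 410 CPM with CXCL14 siRNA (-1.27 ± 0.08). INSIG1, the sterol sensor that retains the SREBP complex, changed by -1.10 ± 0.07. SQLE, squalene epoxidase, went against the list, at 356, 340 and 353 CPM against 138, 128 and 131 CPM (1.40 ± 0.07). Among fatty acid synthesis genes 6 of 25 were higher (24.0%) and 10 lower (40.0%), beside 27.0% and 25.8% of all tested genes. The acetyl-CoA synthetase ACSS2 was furthest apart (-1.47 ± 0.08).

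Lysosomal genes were lower in 20 of 33 (60.6%) and higher in 6 (18.2%), beside 25.8% and 27.0% of all tested genes. Their median was -0.27. TPP1, a lysosomal peptidase, had 78.8, 76.8 and 78.8 CPM with ATF3 siRNA and 139, 145 and 139 CPM with CXCL14 siRNA (-0.85 ± 0.07), and the aspartic protease CTSD changed by -0.86 ± 0.09. The cysteine proteases CTSC (1.19 ± 0.07), CTSS and CTSV (0.77) were higher.

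Replication-dependent histone genes were mostly lower, opposite to the DNA replication genes. Of 26 listed, 19 are among the deposited genes and 14 were tested, of which 9 were lower (64.3%) and 1 higher (7.14%). Their median was -1.07, and of all tested genes 25.8% were lower and 27.0% higher. HIST1H2AC had 12.96, 15.1 and 14.0 CPM with ATF3 siRNA and 58.0, 56.4 and 57.0 CPM with CXCL14 siRNA (-2.03 ± 0.09), and HIST2H2AC was higher at 25, 20 and 19 counts against 7, 6 and 9 counts. Transcripts of these genes mostly lack a poly-A tail, and messenger RNA was selected by its tail, so the values describe the part that was retained.

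Of 78 cytosolic ribosomal protein genes 26 were lower (33.3%) and 3 higher (3.85%), beside 25.8% and 27.0% of all tested genes, with a median of -0.14 that is close to the -0.02 of all genes, and the number of lower calls ran from 7 to 47 over the alternative fits, with 7 without CXCL14 siRNA library 3. RPS7 went against the list, at 413, 394 and 368 CPM with ATF3 siRNA and 132, 132 and 140 CPM with CXCL14 siRNA (1.54 ± 0.07), with the pseudogene RPS7P11 displaced likewise. Nuclear-encoded oxidative phosphorylation genes were higher in 8 (11.0%) and lower in 18 (24.7%) of 73, with 8 lower without CXCL14 siRNA library 3. The furthest apart was NDUFV2, a subunit of complex I, with 1, 5 and 6 counts with ATF3 siRNA and 14, 16 and 16 counts with CXCL14 siRNA (-1.82 ± 0.51), and NDUFA7 was also at least 2-fold lower (-1.16). Of 13 mitochondrially encoded genes 4 were lower (30.8%) and 0 higher, MT-CYB among them (-0.49 ± 0.08), and 2 were lower without ATF3 siRNA library 2 or without CXCL14 siRNA library 2. Of the 20 genes of RNA interference, through which siRNA acts, and of RNA sensing, 4 were higher and 7 lower (35.0%). Changes lay between -0.48 and 0.51.

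The remaining lists moved in both directions, with 25.8 to 47.8% of members higher and 16.7 to 35.5% lower, beside 27.0% and 25.8% of all tested genes. Heat shock chaperones had 9 of 22 higher and 6 lower, with HSPD1, a mitochondrial chaperonin, at 1.16 ± 0.09 and HSPB8 at -2.30 ± 0.26. Chaperones of the unfolded protein response had 11 of 23 higher and 4 lower. Hypoxia and glycolysis genes had 8 of 31 higher, led by the carbonic anhydrase CA12 (2.14 ± 0.09), and 11 lower, among them the glucose transporter SLC2A3 (-1.23 ± 0.08). NRF2 targets had 9 of 30 higher and 5 lower, with the efflux pump ABCC2 furthest apart (-2.12 ± 0.12). Wnt genes had 11 of 29 higher and 8 lower, with the ligand WNT7B at 1.52 ± 0.15 and the receptor FZD5 at -1.61 ± 0.10. Clock and glucocorticoid-response genes had 8 of 24 higher and 8 lower, with the kinase SGK1 at -1.56 ± 0.08.

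Set beside the control libraries on a common scale, the lists fell into different orders. For mitosis and DNA replication, the medians with ATF3 siRNA and with control siRNA lay close together and those with CXCL14 siRNA lay below both. For the stress keratins they were 9.75 to 9.94 with ATF3 siRNA, 6.54 to 6.59 with CXCL14 siRNA and 9.30 to 9.38 with control siRNA. With 5 members, this median was the level of KRT6B, a leading gene, in every library. KRT16 averaged 542 CPM with ATF3 siRNA, 86.2 CPM with CXCL14 siRNA and 174 CPM with control siRNA, nearer to CXCL14 siRNA. KRT6A averaged 8313 CPM, 3392 CPM and 6391 CPM in that order, nearer to ATF3 siRNA. For the antimicrobial list the control libraries lay between, at 3.90 to 4.03, with 5.40 to 5.60 with ATF3 siRNA and 2.87 to 3.36 with CXCL14 siRNA. For the cornified envelope list the ATF3 siRNA libraries stood apart, at 3.32 to 3.47, against 1.63 to 2.13 with CXCL14 siRNA and 2.17 to 2.48 with control siRNA. For the histone list the ATF3 siRNA libraries were lowest, at 1.04 to 1.13, with 2.45 to 2.53 with CXCL14 siRNA and 1.54 to 1.63 with control siRNA. Both siRNA groups would share these control libraries in any test, and none was made.

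**Figure D5:**
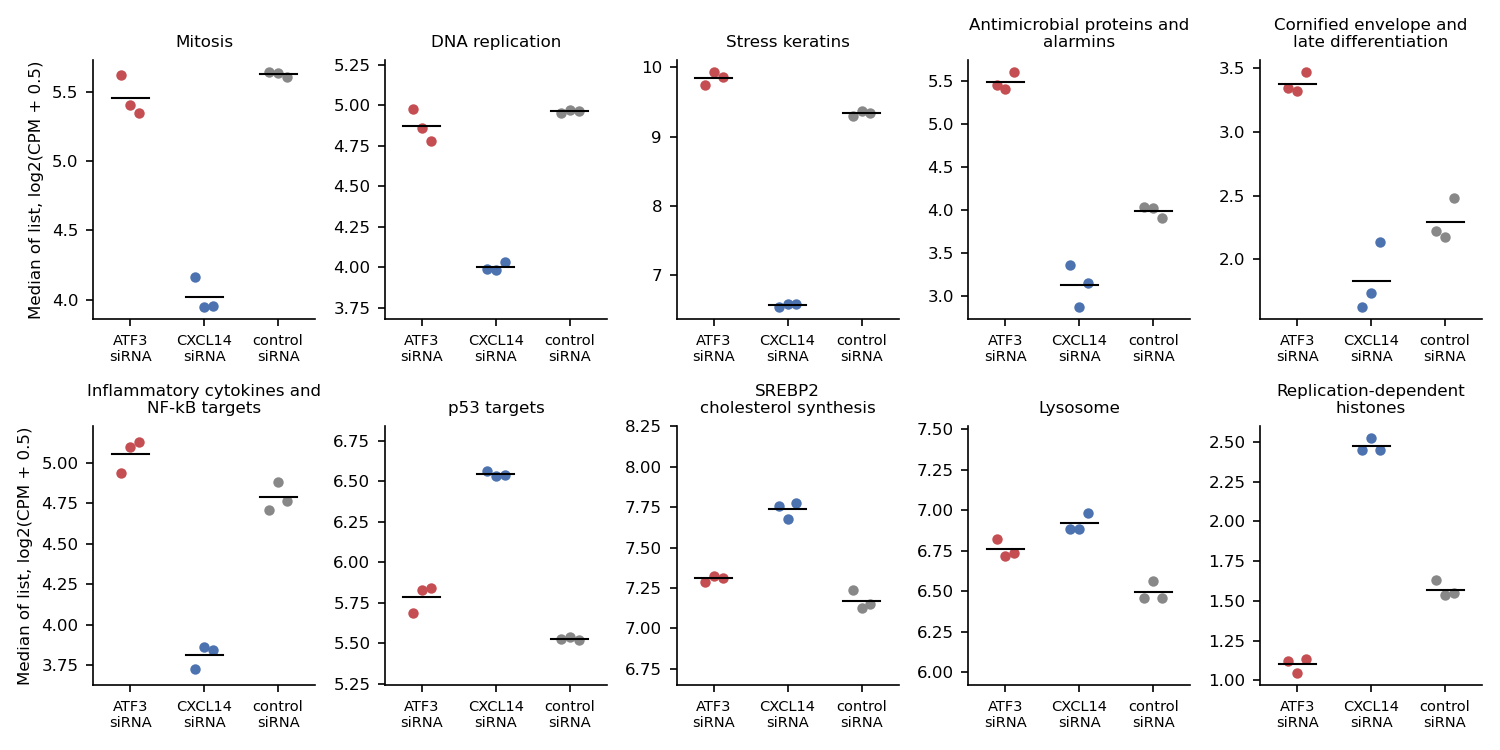
Median level of each of 10 gene lists (y axis, log2(CPM + 0.5), a range of its own in each panel), with 1 point per library and the group mean as a bar, for ATF3 siRNA, CXCL14 siRNA and control siRNA from left to right. The mitosis median is 5.35 to 5.63 with ATF3 siRNA, 3.94 to 4.16 with CXCL14 siRNA and 5.61 to 5.65 with control siRNA, while the antimicrobial medians of the 3 groups do not overlap.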

How the data were processed

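Bulk RNA sequencing of poly-A-selected RNA was used as the authors deposited it, as whole-number counts per gene; per the submitters' processing notes the build was hg38 and the tools were HISAT2 (2.0.5) with featureCounts (1.5.0-p3), and annotation and strand setting are not given in the sources used here. The deposited table holds 58735 genes, 0 library columns were left unmapped, and the FPKM tables were not used. The 6 libraries of ATF3 siRNA and CXCL14 siRNA were fitted alone in edgeR 4.0.16 (R 4.3.3): filterByExpr (14388 genes, 99.9% of counts), TMM scaling and the quasi-likelihood test, with Benjamini-Hochberg adjustment over all tested genes. The SE is the log2 fold change divided by the square root of F. CXCL14 did not pass the filter, so the planned test could not be made in that fit. Levels set beside the control come from TMM scaling of all 12 libraries. Genes are called at an adjusted p under 0.05. The edgeR, DESeq2 and limma-voom steps were also run on simulated counts with known changes.

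Members and gene lists were chosen with earlier results of these data known. Named genes are the 3 targets; the 12 largest changes per direction among called protein-coding genes, 3 among other biotypes and 6 among annotated transcription factors, each averaging 5 CPM or more in 1 group and not overlapping; and up to 3 called members per direction and list with the smallest adjusted p. That gives 206 genes, of which the text describes a part and some are not reported here. Other list members, the gene families by symbol and genes outside the rule were named after their values were seen. Motif letters were searched in RefSeq promoters (GRCh38.p14). Alternatives were other scalings and filters, DESeq2 1.42.0, limma-voom (limma 3.58.1), a replicate block, a fit of all 12 libraries and leaving out each library.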

Additional observations from a re-analysis of the deposited data

How the results depend on the processing

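Over 14 alternative fits, 205 named genes gave 2866 values: 2854 kept direction and call, 12 lost the call (in APOE, BTG2, KRT7, MT-ND1 and RPS12) and 0 reversed. The counts of called genes stayed within 1.5 times of 3884 higher and 3709 lower, except that the stricter filter (at least 1 CPM in 3 libraries, and 50 counts on average), which tests fewer genes, left 361 genes at least 2-fold lower in place of 737. Library sizes alone gave 3227 higher and 4659 lower genes. Leaving out 1 library gave 3421 to 3903 higher and 3087 to 3596 lower genes, 1192 to 1281 at least 2-fold higher and 722 to 820 at least 2-fold lower, and ATF3 at -2.56 to -2.48. Of the calls, 7069 were made the same way by DESeq2 and 7469 by limma-voom. CXCL14 could be fitted with no filter (4.32, adjusted p = 4.45e-07), with all 12 libraries (4.28, adjusted p = 0.00225) and without 4 of the libraries in turn (3.71 to 4.78). List medians kept their sign in every alternative for 27 of 34 lists; the exceptions were AP-1 and ATF family, clock, heat shock, integrated stress response, interferon-stimulated, NRF2 and TGF-beta genes. Whether replicate numbers pair the libraries is not stated in the labels. Deviations of same-numbered libraries correlated at 0.287, -0.0378 and 0.214, and those of differently numbered libraries at -0.339 to 0.151. CXCL14 siRNA library 2 correlated best with ATF3 siRNA library 3 (0.151). Principal component 2 (8.2% of variance) followed the replicate number in both groups. It was 16.96, -0.38 and -18.11 with ATF3 siRNA and 13.28, -3.07 and -8.67 with CXCL14 siRNA. A fit with the replicate number as a block gave 4152 higher and 4065 lower genes. Whether same-numbered libraries were handled together was not tested. Depth limits genes of a few counts, such as CXCL14, MMP1, MMP10 and EGF.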
